A study of Mus musculus with 17 samples.

Results

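The genes described here handle iron and heme: Hmox1, Blvrb, Spic, Slc40a1, Fth1, Ftl1, Tfrc, Trf and Slc11a1. They were chosen by name, with earlier results of these data known, as were the wider lists used below. Counts of them set beside all genes are therefore descriptions and no independent support. All 9 were found in each of 4 expression tables. These list 19782 genes for the knockout experiments, 17130 for the CXCR4 sort, 18818 for the cultures and 26584 for the basal cells. The tables cover 17 RNA-seq libraries from mammary glands of virgin mice, in 12 groups of 1 or 2 libraries. The series addressed signalling between the chemokine CXCL12 and its receptor CXCR4 in the macrophages around mammary stem cells.

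Macrophages of the knockout experiments were sorted on F4/80 and CD11b, with 2 libraries in each of 4 groups. Controls of the LysM line carried LysmCre+ and were called wild type controls. The Cxcr4 knockout was LysmCre+, Cxcr4fl/fl, so both groups of this pair carried the Cre, which is active in myeloid cells and not in macrophages alone. Controls of the K8 line carried K8Cre+ and were also called wild type controls. The Cxcl12 knockout was K8Cre+, Cxcl12fl/fl, a Cre active in luminal epithelial cells, so its macrophages were not themselves targeted. Wild type macrophages were sorted further by surface CXCR4 into 2 positive libraries and 1 negative library. Sorted wild type macrophages were also cultured in RPMI with 2% serum, 1 library each: untreated, with recombinant CXCL12, with the AKT inhibitor GSK690693, and with both. Lin-CD24+CD29hi basal cells enriched for mammary stem cells, called P4, gave 1 library from a control and 1 from the Cxcl12 knockout. The title of the P4 control says wild type mice, while its values are labelled as the K8 control. The labels give no age, strain, dose or treatment time, and do not say whether repeats came from separate mice, so p-values measure the spread between these samples, which may be technical.

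As background, macrophages take up heme from aged red cells and cell debris. HMOX1 opens the heme ring, releasing iron, carbon monoxide and biliverdin. Biliverdin reductases convert forms of biliverdin to bilirubin or related products, and Blvrb encodes a biliverdin reductase. SPI-C is a transcription factor of the iron-recycling macrophages of spleen red pulp and bone marrow, and its gene is induced by heme once the repressor BACH1 is degraded. Freed iron is either stored in ferritin, a shell of FTH1 and FTL1 subunits, or leaves the cell through ferroportin, encoded by Slc40a1, the known cellular exporter of iron. Iron enters most cells as transferrin, encoded by Trf, bound to the transferrin receptor, encoded by Tfrc. NRAMP1, encoded by Slc11a1, moves divalent metals across the membrane of the phagosome.

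The messages of 4 of these genes carry iron-responsive elements, short hairpins that iron regulatory proteins bind when iron is scarce. Binding in a 5′ UTR blocks translation, and binding in a 3′ UTR protects the message from decay. The elements are shown because RNA levels reflect this control in Tfrc but miss the translational part in ferritin and ferroportin. The search used GENCODE M21 transcripts on GRCm38 for the motif CNNNNNCAGTGN, with the last base not G, followed by 5 bases able to pair with the 5 that precede the loop, G to U pairs allowed, on the sense strand only. It found 7 matches in 4 of the 9 genes, each searched in 1 transcript. Of 21877 protein-coding genes, 1.01% had a match in any of their protein-coding transcripts, searched over the whole length. As the motif describes the elements named above, the matches show where these lie and are no independent support. The windows below span 29 bases, 5′ to 3′ on the gene's strand, and the capitals mark the loop.
Slc40a1, 5′ UTR, chr1:45925465-45925493, minus strand: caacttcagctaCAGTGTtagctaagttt
Fth1, 5′ UTR, chr19:9982732-9982760, plus strand: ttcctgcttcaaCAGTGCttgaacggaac
Ftl1, 5′ UTR, chr7:45459779-45459807, minus strand: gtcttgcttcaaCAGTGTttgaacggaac
Tfrc, 3′ UTR, chr16:32631219-32631247, plus strand: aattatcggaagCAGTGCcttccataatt
Tfrc, 3′ UTR, chr16:32631598-32631626, plus strand: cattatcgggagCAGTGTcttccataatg
Tfrc, 3′ UTR, chr16:32631663-32631691, plus strand: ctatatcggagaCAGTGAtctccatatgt
Tfrc, 3′ UTR, chr16:32631710-32631738, plus strand: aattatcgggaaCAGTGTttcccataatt
The 3 messages of storage and export each held 1 match before the coding sequence, while the 4 matches of Tfrc all lay behind it. A match describes these letters only, and none of the libraries measured translation or iron.

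Each macrophage library held between 8600000 and 37230000 reads, as inferred from the steps between values, and levels are in CPM, reads scaled to a common library total. Macrophage markers summed to between 1180 and 2540 CPM in the knockout libraries, and Cxcr4 was lower in both Cxcr4 knockout libraries (232 and 140.4 CPM) than in their controls (819 and 318 CPM), without passing the adjusted test. In the CXCR4 sort, Cxcr4 RNA did not follow the gate, with levels of 632 and 875 CPM in CXCR4+ cells and of 772 CPM in CXCR4- cells. Of listed genes 30.43% were at 0 in the first LysM-Cre control library and 36.96% in the first K8-Cre control library, and the lowest share among the knockout libraries was 8.113%. In the cultured libraries, markers of endothelium (1291 to 1696 CPM) exceeded those of macrophages (653 to 912 CPM). In P4 cells, basal markers summed to 4066 and 5538 FPKM, a length-scaled unit of abundance, against 7.40 and 9.56 FPKM for macrophage markers.

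Ferritin subunits and heme oxygenase led the set in freshly sorted macrophages. To compare genes, CPM was divided by transcript length in kilobases. Over the 8 knockout libraries the median level per kilobase was 1054 for Fth1, 560.3 for Ftl1, 421.6 for Hmox1, 126 for Trf and 54.6 for Slc11a1. Each of these exceeded the next gene in all 8 libraries, except that Ftl1 exceeded Hmox1 in 7 of 8. These Ftl1 levels leave out the reads of Ftl1-ps1, a near copy described below. With the copy added to Ftl1, the ratio of Fth1 to Ftl1 per kilobase ran from 0.569 to 1.225. The order of these ferritin genes therefore depends on how reads of the copy were counted. The other members lay lower, at medians of 23.4 for Tfrc, 21.7 for Blvrb, 14.8 for Spic and 9.07 for Slc40a1 per kilobase. Neighbours in that lower range changed places between libraries: Tfrc exceeded Blvrb in 4 of 8, Blvrb exceeded Spic in 4 of 8 and Spic exceeded Slc40a1 in 5 of 8.

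In culture the order of Hmox1 and Fth1 was reversed. Hmox1 exceeded Fth1 per kilobase in 4 of 4 cultured libraries, at 1215 to 2728 against 971 to 1261, whereas Fth1 exceeded Ftl1 in 2 of 4. The copy Ftl1-ps1 had 1125 to 1328 per kilobase, beside 1037 to 1136 for Ftl1. Whether Hmox1 or Ftl1 led in culture therefore depends on how reads of the copy were counted. In the table of P4 cells, whose FPKM already account for length, ferritin again led, with 295 and 337 FPKM for Ftl1 and 257 and 355 FPKM for Fth1. Hmox1 followed at 164 and 161 FPKM and Trf at 120.3 and 133 FPKM. The macrophage genes of the set were close to absent there: Slc11a1 had 0.389 and 0.318 FPKM and Spic 0.0844 and 0.191 FPKM. The tables were normalized separately, so no level was tested between them.

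**Figure D1:**
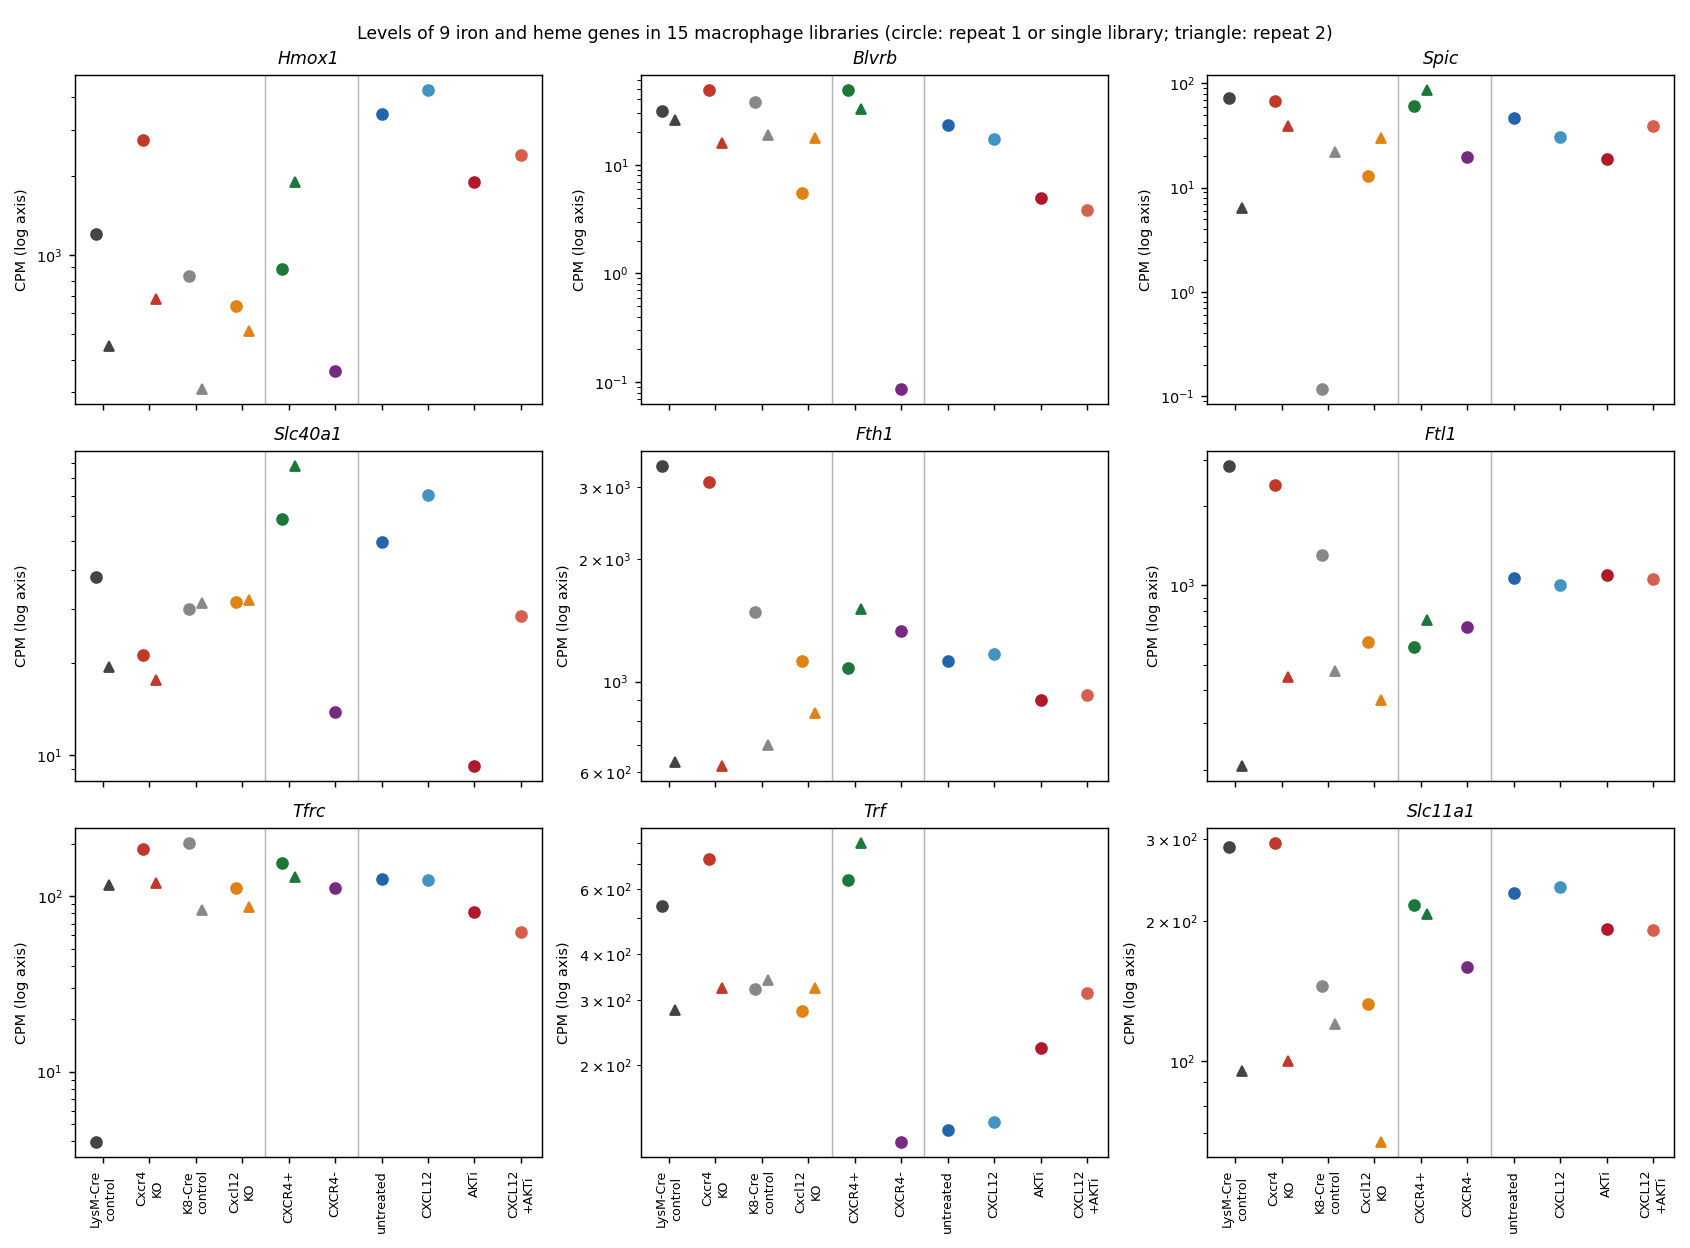
Level of each of the 9 genes in the 15 macrophage libraries, in CPM on a log axis, with 1 point a library, in the order knockout experiments, CXCR4 sort and culture, where AKTi stands for the AKT inhibitor. Circles are repeat 1 or a single library and triangles repeat 2. Blvrb is near 0 only in the CXCR4-negative library, and Tfrc and Spic each have 1 control library far below the rest.

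The gene counted as Ftl1 has a near copy, Ftl1-ps1, and their reads cannot be separated with certainty. Their transcripts were identical at 906 of 910 aligned bases, and 75.93% of the copy's windows of 50 bases also occur in Ftl1. How reads that match both were counted is not given in the sources used here. The copy took 48.4% to 61.53% of their sum in the knockout libraries and 50.59% to 53.85% in culture. In the CXCR4 sort it took 64.44% and 62.18% in the positive libraries but 38.51% in the negative one. All Ftl1 values given here are therefore uncertain, and those of the CXCR4 sort are given with and without the copy.

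The CXCR4 sort asked how wild type macrophages with CXCR4 on their surface differ from those without it. Hmox1, Blvrb, Spic, Slc40a1 and Trf were higher in the CXCR4-positive libraries, while the ferritin genes overlapped and the transferrin receptor did not pass. By limma with Benjamini-Hochberg adjustment over 14411 genes, 5 of 9 members passed as higher and 0 as lower. Among all genes 8.46% passed, 5.06% higher and 3.4% lower. The members were chosen with earlier results of these data known, so this is no independent comparison. The median difference over the 9 was 1.83 (log2, positive minus negative), against -0.20 over all genes tested. The sets of libraries did not overlap for 7 of 9 members, all higher. Of all genes 76.7% did not overlap, 32.1% higher and 44.6% lower.

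Hmox1 (chr8:75093621-75100589, plus strand), which opens heme, reached 885 and 1894 CPM with CXCR4 and 362 CPM without it. Both positive libraries were higher, the second more so than the first. The difference was 1.84 (log2, SE 0.33, limma adjusted p = 2.34e-06), or 1.29 and 2.39 against each positive library alone.

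Blvrb (chr7:27447978-27466144, plus strand), encoding a biliverdin reductase, gave the widest contrast. Its levels were 49.4 and 32.6 CPM in CXCR4+ cells and 0.0862 CPM, or 2 reads, in CXCR4- cells. Neither positive library came near the negative one. The ratio to those 2 reads was 572.8, with a counting interval of 158.3 to 4734, for the first positive library and 378.7 (104.5 to 3132) for the second. On the log2(CPM + 1) scale, which understates changes of genes this low, the difference was 5.24 (SE 0.79, limma adjusted p = 3.56e-09).

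Spic (chr10:88674772-88685015, minus strand), the regulator of iron-recycling macrophages, reached 60.7 and 87.5 CPM with CXCR4 and 19.8 CPM without it. Slc40a1 (chr1:45908068-45926523, minus strand), the exporter, had 58.7 and 87.6 CPM against 13.8 CPM. For both genes the positive libraries lay together above the negative one. Spic differed by 1.83 (log2, SE 0.45) and Slc40a1 by 2.29 (SE 0.47), with limma adjusted p = 0.00145 and 5.31e-05.

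Trf (chr9:103204001-103230444, minus strand), transferrin itself, is made chiefly by liver but its RNA was abundant in these macrophages. Levels were 636 and 801 CPM in CXCR4+ cells and 123 CPM in CXCR4- cells. The positive libraries were both several times higher, and the difference of 2.52 (log2, SE 0.33, limma adjusted p = 2.93e-12) had the smallest p of the set.

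Storage and uptake genes did not pass. Fth1 (chr19:9980598-9985098, plus strand) had 1079 and 1503 CPM against 1329 CPM, so that the negative library fell between the positive ones, as it did for Ftl1 (chr7:45457944-45459884, minus strand; 585 and 742 CPM against 693 CPM). The Fth1 difference was -0.06 (log2, 95% interval -0.74 to 0.61) and that of Ftl1 -0.07 (-0.72 to 0.58). Ftl1-ps1 alone was higher, with 1060 and 1221 CPM against 434 CPM, and the sum of Ftl1 and its copy differed by 0.67 (log2, limma adjusted p = 0.278). Tfrc (chr16:32608920-32632794, plus strand) had 154 and 130 CPM against 111 CPM. Slc11a1 (chr1:74375195-74386062, plus strand) had 217 and 207 CPM against 159 CPM. Both were slightly higher in each positive library, by 0.34 (95% interval -0.37 to 1.05) and 0.41 (-0.27 to 1.09), without passing.

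**Figure D2:**
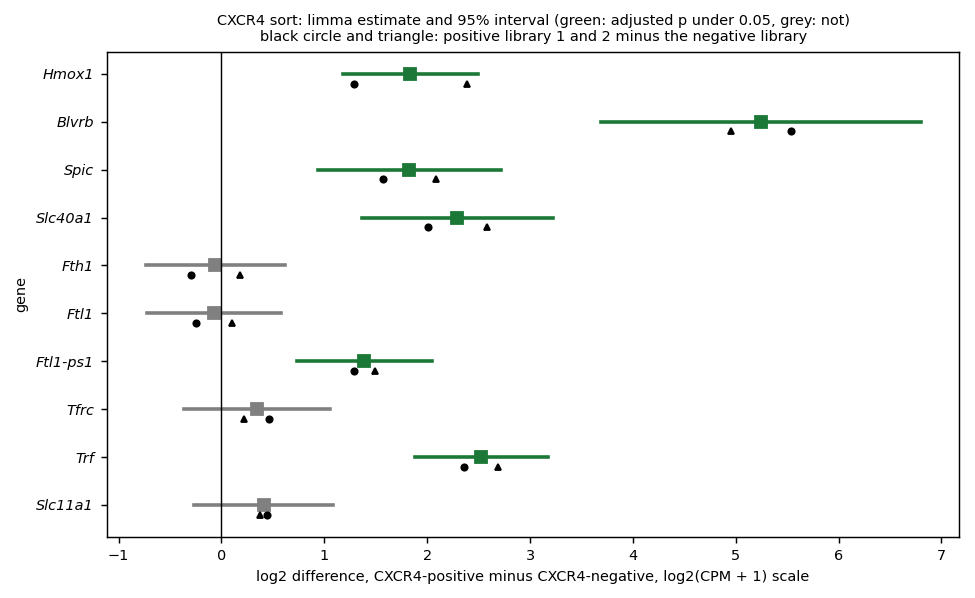
Difference between CXCR4-positive and CXCR4-negative macrophages for the 9 genes and the Ftl1 copy, in log2(CPM + 1) units. Squares with bars are limma estimates with 95% intervals, coloured where the adjusted p is under 0.05, and the circle and triangle are positive library 1 and 2 minus the negative library. Hmox1, Blvrb, Spic, Slc40a1 and Trf lie to the right of 0 with both libraries, and Fth1 and Ftl1 straddle 0.

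Further genes of iron and heme passed in the same comparison. Of 56 further genes of heme, iron and oxidative stress, 47 were tested, 9 passed as higher and 1 as lower, beside 5.06% higher and 3.4% lower of all genes. Of 8 tested genes of heme uptake and breakdown, only 4 had a difference above 0, with a median of 0.006 (log2), and 2 passed as higher. Cd163, the receptor for hemoglobin bound to haptoglobin, was higher, with 724 and 621 CPM against 47.6 CPM, a difference of 3.79 (log2). Bach1, the heme-sensing repressor, was also higher, with 1012 and 1662 CPM against 479.7 CPM. Of 9 tested genes of iron uptake, 3 were higher: Slc11a2, encoding the metal transporter DMT1, with 387 and 474 CPM against 47.8 CPM, Slc39a14, encoding another transporter of iron and zinc, with 65.0 and 57.6 CPM against 23.0 CPM, and Lcn2, encoding a binder of bacterial siderophores.

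Cp, encoding ceruloplasmin, the ferroxidase that works beside ferroportin, was the 1 of 3 tested genes of export that passed, with 149.5 and 102 CPM against 22.0 CPM. The storage chaperones, the iron sensors and the genes of mitochondrial iron and heme synthesis (3, 3 and 13 tested) had 0 that passed. Targets of NRF2, the factor of the oxidative stress response that also drives Hmox1, were divided. Of 8 tested, Srxn1, Prdx1 and Txnrd1 were higher by 1.64, 1.49 and 1.18 (log2), and Slc7a11, the cystine importer, was lower, with 128 and 158 CPM against 377 CPM.

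Cell type markers moved with the same gate. Of 6 macrophage markers 5 were higher, and they summed to 3491 and 3907 CPM with CXCR4 and to 1530 CPM without it. Of 4 dendritic cell markers 3 were lower and 1 higher, and they summed to 141 and 102 CPM against 670.5 CPM. Flt3 had 18.1 and 0.441 CPM against 187 CPM, while Xcr1 was the higher one, with 24.2 and 28.2 CPM against 5.43 CPM. Of 4 fibroblast markers 2 were higher, Col1a1 with 50.9 and 93.5 CPM against 16.6 CPM and Col1a2 with 30.9 and 112 CPM against 21.6 CPM, and the list summed to 126 and 266 CPM against 62.5 CPM. Monocyte markers summed to 615 and 643 CPM against 949.8 CPM, and eosinophil markers to 5.63 and 3.93 CPM against 131 CPM, with Epx at 0 in both positive libraries. Of 8 erythroid markers 1 was matched in this table, Hba-a2, at no more than 3.19 CPM in any of the 3 libraries. The part of the other cell types in the iron gene differences was not tested. In bulk samples, fewer cells of a type and less RNA per cell cannot be told apart.

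The negative group had 1 library, assumed to vary like the positive pair, and the spread of each gene was set by the trend over all genes, since 1 residual degree of freedom carried almost no information. Without that trend, or without the filter on low values, no gene passed (0 of 9 members), with adjusted p of 0.228 to 0.361 and 0.258 to 0.368 for the 5 members.

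Loss of Cxcr4 in LysM-Cre cells asked what the receptor does in macrophages. Not 1 of the 9 genes passed by limma over 17275 genes, where 0.00579% (1 gene) of all genes did and 575 (3.33%) had an unadjusted p under 0.05. The median change of the members was 0.31 (log2, knockout minus control), against 0.14 over all genes. Only Tfrc had groups that did not overlap. Of all genes 25.5% had such groups, with 16.7% of all genes higher and 8.78% lower in the knockout.

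Tfrc had 3.96 and 117 CPM in the controls and 186 and 120 CPM in the knockouts. The first control library, with 30.43% of genes at 0, was far below the other 3, and the second control was level with the second knockout. The change of 2.64 (log2, SE 0.77, limma adjusted p = 0.978) was 5.24 within repeat 1 and 0.03 within repeat 2. The labels do not say that repeat numbers pair libraries, so changes within a repeat here and below are descriptions only. Tfrc passed only when the second control library was left out (4.92, limma adjusted p = 1.84e-06), which leaves that low library as the sole control.

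Hmox1 had 1209 and 451 CPM in the controls and 2757 and 684 CPM in the knockouts. Each knockout was above the control of the same repeat number, by 1.19 in repeat 1 and 0.60 in repeat 2 (log2). The groups overlapped, with the first control above the second knockout. The change of 0.89 (log2, 95% interval -0.03 to 1.82) did not pass. Spic had 71.8 and 6.41 CPM in the controls and 67.6 and 39.5 CPM in the knockouts, and only the second control was low. Slc40a1 had 38.0 and 19.4 CPM in the controls and 21.2 and 17.6 CPM in the knockouts, where the first control stood highest.

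Ferritin levels were high in repeat 1 and low in repeat 2 of both genotypes. Fth1 had 3376 and 633 CPM in the controls and 3092 and 622.03 CPM in the knockouts, a change of -0.08 (log2, 95% interval -1.003 to 0.85). Ftl1 had 2838 and 207 CPM against 2399 and 449 CPM. The lowest value was the second control, and without the first control the Ftl1 change became 2.32 (log2, limma adjusted p = 0.0093), which leaves that lowest library as the only control. Blvrb, Trf and Slc11a1 changed by -0.02, 0.31 and 0.05 (log2) with overlapping groups.

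Loss of Cxcl12 from luminal cells asked whether macrophages respond to the loss of that source. Cxcl12 RNA in macrophages was 11.7 and 149 CPM in the controls and 58.2 and 164 CPM in the knockouts. In P4 cells it was 270 FPKM in the control and 350 FPKM in the knockout. No library was of sorted luminal cells, so the loss itself cannot be checked here. By limma 0 of 9 members passed and 0% of all genes did, with 491 genes (2.84%) at an unadjusted p under 0.05. The members' median change was -0.13 (log2), against 0.36 over all genes. Groups did not overlap for 2 of 9 members, Blvrb lower and Slc40a1 higher. Of all genes 28.4% had such groups, with 8.03% of all genes lower and 20.4% higher.

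Blvrb had 38.1 and 19.0 CPM in the controls and 5.48 and 17.6 CPM in the knockouts. The first knockout library was low, and the second was only just below its control. The change of -1.35 (log2, SE 1.14) was -2.59 within repeat 1 and -0.10 within repeat 2. Spic had 0.116 CPM, or 1 read, and 22.1 CPM in the controls and 12.8 and 30.2 CPM in the knockouts. Here the first control stood alone at the floor. It was the library with the fewest reads of the 8 (8600000) and the highest share of genes at 0 (36.96%), whose part in the Spic value was not tested. The change of 2.03 (log2, SE 1.29) was 3.63 within repeat 1 and 0.43 within repeat 2.

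Slc40a1 varied least, with 29.9 and 31.3 CPM in the controls and 31.6 and 31.9 CPM in the knockouts. Its groups were apart by a margin smaller than the spread of the controls, and its change was 0.05 (log2, 95% interval -2.00 to 2.11). Hmox1 had 831 and 309 CPM in the controls and 639 and 512 CPM in the knockouts, lower than the control in repeat 1 and higher in repeat 2. Ftl1 and Tfrc changed by -0.73 and -0.39 (log2), Slc11a1 by -0.48, Trf by -0.13 and Fth1 by -0.07, all with overlapping groups.

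The test of the difference between the knockouts passed for 0 of 9 members and for 0.00579% of all genes (428 genes, or 2.48%, at an unadjusted p under 0.05). Tfrc had the widest gap, 3.03 (log2, SE 1.08, limma adjusted p of nearly 1). It passed when the second LysM-Cre control was left out (5.32, limma adjusted p = 0.000803), and Ftl1 passed when the first was left out (3.05, limma adjusted p = 0.016). Of the 56 wider genes, 49 were tested, and 0 passed in either knockout or in the difference. Erythroid markers (5 of 8 matched), a sign of red cell RNA, ran from 0 to 78.9 CPM over the 8 libraries, and neutrophil markers from 0.0993 to 331 CPM.

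**Figure D3:**
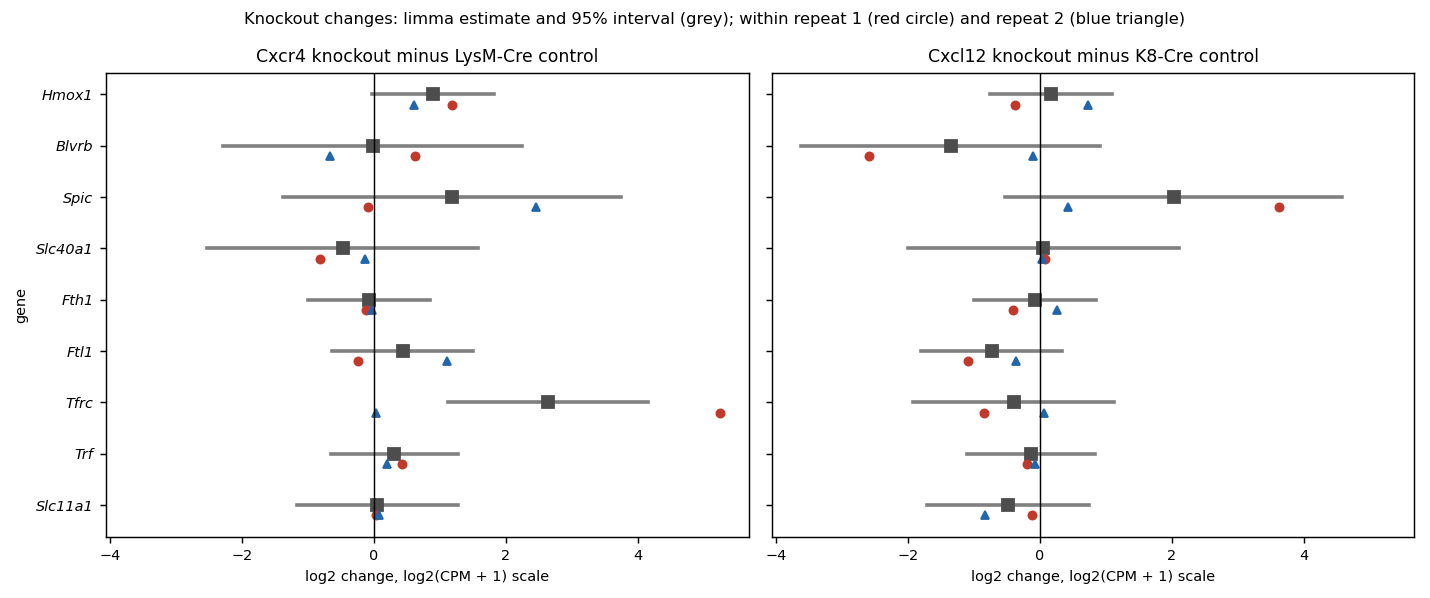
Change of each gene in the Cxcr4 knockout (left) and the Cxcl12 knockout (right) against controls of the same Cre line, in log2(CPM + 1) units. Squares with bars are limma estimates with 95% intervals, circles are the change within repeat 1 and triangles within repeat 2. Repeat numbers are not known to pair libraries. In the left panel 1 of the repeats lies near 0 and the other far from it for Tfrc and Spic. In the right panel Blvrb shows this too (-2.59 within repeat 1, -0.10 within repeat 2), and Spic has 3.63 and 0.43.

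Several members differed by repeat in every group. Fth1, Ftl1, Hmox1 and Slc11a1, that is 4 of 9, were higher in repeat 1 than in repeat 2 in all 4 groups, beside 5.8% of all genes. In the other direction 0 of 9 were higher in repeat 2 in all 4 groups, beside 11.9% of all genes. Ratios of repeat 1 to repeat 2 ran from 1.34 to 5.33 for Fth1, from 1.67 to 13.7 for Ftl1, from 1.25 to 4.03 for Hmox1 and from 1.21 to 3.03 for Slc11a1. For 3 of 9 members every repeat 1 library lay above every repeat 2 library, beside 2.87% of all genes. Small noncoding RNA took 2.96% to 6.73% of CPM in repeat 1 and 15.2% to 19.3% in repeat 2. Its part in these ratios was not tested.

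Genes with the most similar levels over the 8 knockout libraries are given as a description. These 8 points share the repeat, so values within each repeat (4 libraries) follow. They come from the same libraries that were used to choose the genes, so they are no independent check. Tfrc and Spic each had 1 control library far below the rest, whose weight in r was not tested. Hmox1 was closest to Ywhag (Pearson r of log2 levels 0.99, 0.994 in repeat 1 and 0.934 in repeat 2) among 8982 genes, then Ago2 and Cdkn1a. Fth1 was closest to Rps3 (0.996, 0.994 and 0.841) and Ftl1 to Flcn (0.981, 0.955 and 0.898), and Ftl1-ps1 was among the closest 3 of both, at 0.986 for Fth1 (0.996 and 0.449 within repeats) and 0.979 for Ftl1 (0.97 and 0.871). Trf was closest to Hexa (0.977, 0.998 and 0.987), Slc40a1 to Mcpt4 (0.942, 1 and 0.928), Spic to Gphn (0.988, 0.998 and 0.949), Blvrb to Glo1 (0.962, 0.993 and 0.909), Slc11a1 to Hk2 (0.975, 0.953 and 0.914) and Tfrc to Polr2b (0.992, 0.997 and 0.613).

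The cultures asked what CXCL12 does with and without AKT signalling. With 1 library a condition there was no test, and a gene of at least 10 CPM in the higher library counts here when it differed at least 2-fold on the log2(CPM + 1) scale. With the AKT inhibitor alone, 3 of 9 members were lower by that measure, where 15.8% of all genes were lower and 19.2% higher, 35% in all. With the inhibitor added to CXCL12, 2 of 9 were lower (23.7% of all genes) and 1 was higher (22.8%), with 46.6% either way. The inhibitor's median log2 ratio over the 9 was -0.63 without and -0.34 with CXCL12, against 0.06 and 0.07 over all genes.

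Slc40a1 had 49.4 CPM untreated, 70.4 CPM with CXCL12, 9.22 CPM with the inhibitor and 28.4 CPM with both. It was lower with the inhibitor on either background, with log2 ratios of -2.30 and -1.28. Blvrb had 23.3 CPM untreated, 17.2 CPM with CXCL12, 4.96 CPM with the inhibitor and 3.87 CPM with both. Both inhibitor libraries were low, with log2 ratios of -2.03 without CXCL12 and -1.90 with it.

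Hmox1 had 3458 CPM untreated, 4280.01 CPM with CXCL12, 1907 CPM with the inhibitor and 2416 CPM with both. It was lower with the inhibitor on either background but by less than 2-fold, with log2 ratios of -0.86 and -0.82. Tfrc had 126 and 125 CPM without the inhibitor and 81.0 and 63.0 CPM with it, with log2 ratios of -0.63 and -0.98. Trf went the other way, with 133 and 140.04 CPM without the inhibitor and 222 and 313 CPM with it, and reached 2-fold only where CXCL12 was present (1.15).

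Ferritin and NRAMP1 differed little. Ftl1 lay between 1004 and 1100 CPM, Fth1 between 902 and 1171 CPM and Slc11a1 between 191 and 237 CPM in the 4 libraries. Spic had 46.9 CPM untreated, 30.4 CPM with CXCL12, 18.8 CPM with the inhibitor and 39.0 CPM with both, so the inhibitor library was lowest and no treatment had the same direction on both backgrounds.

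CXCL12 without the inhibitor left 0 of 9 members at least 2-fold apart, where 24.8% of all genes were, 11.2% higher and 13.5% lower. Slc40a1 had the highest log2 ratio, 0.50, and Hmox1 followed at 0.31. With the inhibitor, 2 of the 8 members that reached 10 CPM were at least 2-fold higher, Slc40a1 by 1.53 and Spic by 1.02 (log2), beside 20.8% of all genes higher, 27.1% lower and 47.9% either way. Hmox1 differed by 0.34. Blvrb was below that level in both libraries.

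Some NRF2 targets were also lower in the inhibitor libraries. Without CXCL12 4 of 7 such genes that reached 10 CPM were at least 2-fold lower and 0 higher, beside 15.8% and 19.2% of all genes. With CXCL12 4 of 8 were lower and 0 higher, beside 23.7% and 22.8%. Prdx1, a peroxidase, had 1247 CPM untreated and 359 CPM with the inhibitor, and 1509 and 626 CPM with CXCL12. Srxn1, which repairs peroxiredoxins, had 757 and 217 CPM, and 812 and 309 CPM. Gclm, of glutathione synthesis, had 199.6 and 93.8 CPM, and 205 and 89.6 CPM. Markers of other cells moved between these libraries as well: dendritic cell markers summed to 202, 197, 114 and 157.5 CPM, fibroblast markers to 150.3, 102, 123 and 166 CPM, erythroid markers to 235, 180, 248 and 311 CPM, and endothelial markers to 1456, 1291, 1696 and 1446 CPM, in the order untreated, CXCL12, inhibitor and both. Their part in the ratios was not tested.

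**Figure D4:**
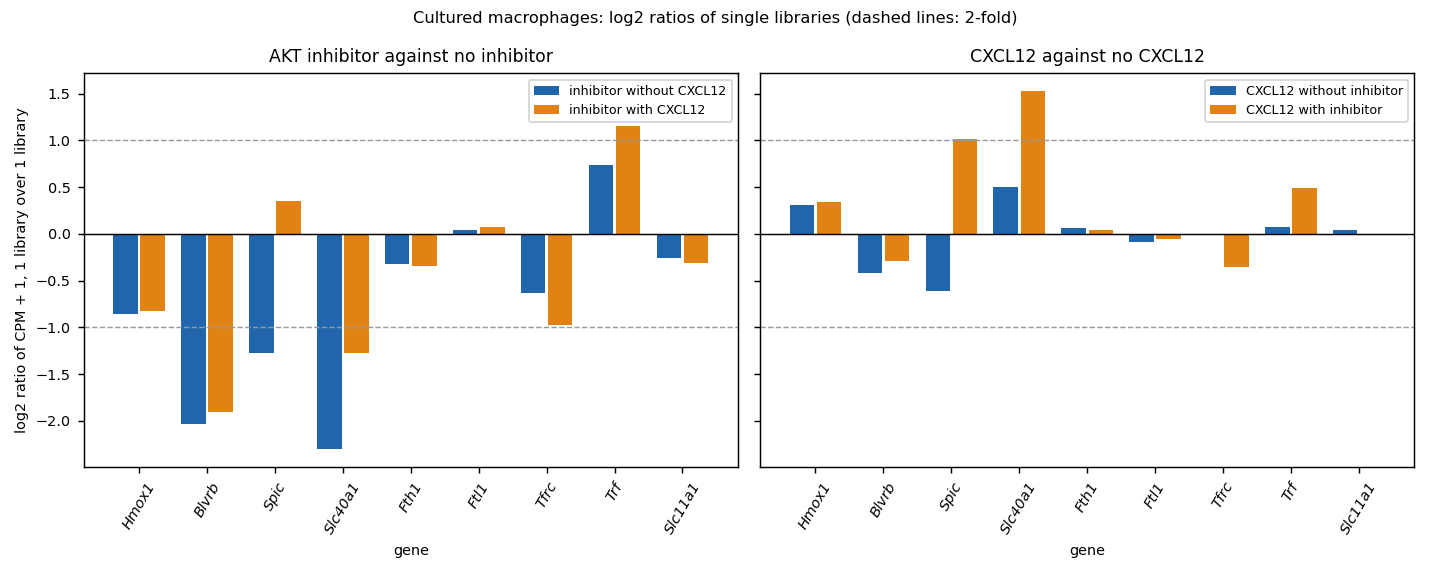
Log2 ratios of single cultured libraries for the 9 genes, inhibitor against no inhibitor (left) and CXCL12 against no CXCL12 (right), with dashed lines at 2-fold. Slc40a1 and Blvrb fall below the lower line in both inhibitor comparisons, Ftl1 is near 0, and Spic has bars of opposite sign in both panels.

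In P4 basal cells, 5 of 9 members reached 10 FPKM and 1 of them, Tfrc, differed at least 2-fold, where 13.3% of all genes did, 7.99% higher and 5.33% lower. Tfrc had 34.7 FPKM in the P4 control and 79.8 FPKM in the Cxcl12 knockout, a log2 ratio of 1.18. Fth1 was the next highest at 0.46, and Ftl1, Trf and Hmox1 had log2 ratios of 0.19, 0.15 and -0.03. Blvrb had 2.09 and 4.70 FPKM and Slc40a1 3.13 and 1.14 FPKM, too low for the count above. With 1 library a group these values have no replicate check, and the depth behind them is unknown.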

How the data were processed

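RNA-seq of sorted macrophages (15 libraries) and P4 basal cells (2 libraries) was analysed from deposited tables. The 9 genes and all lists were chosen with earlier results of these data known. The deposited macrophage values are log2(CPM + 0.0001), a unit read from the values. Between 74.6% and 90.19% of values up to 50 reads were whole (tolerance 0.05 reads), so they are not counts. The deposited P4 values are FPKM in a Cufflinks-like layout, with depth unknown. The submitters' processing notes name STAR 2.7.8a, Partek and hg38, although symbols and coordinates are mouse, and the counting step is not given in the sources used here. Start positions matched GENCODE M21 (GRCm38) for 99.49% and 99.5% of genes in the knockout and CXCR4 tables and for 2.157% in the culture table. Coordinates printed are those of the first 2 tables.

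Of entries sharing a symbol the most abundant one stayed in, so that 91 culture and 27 P4 entries were left out. Because the plan had allowed for counts, its fallback for normalized values was used. Differences were fitted with limma 3.58.1 (R 4.3.3) on log2(CPM + 1), over 4 groups (knockouts, 8 libraries) or 2 groups (CXCR4 sort, 3 libraries), with a mean-variance trend and no replicate block. A gene was tested if 2 or more libraries reached 1 CPM; tests were two-sided, and a gene passed at a Benjamini-Hochberg adjusted p under 0.05, adjusted over all genes. All 9 members passed the filter in both fits. Residual degrees of freedom were 4 for the knockouts, with a prior worth 97.33, and 1 for the CXCR4 sort, with an infinite prior. The fits were also run on simulated data with the same spread for every library of a gene. That setting cannot test whether the negative library varies like the positive pair. Single libraries were compared as log2 ratios with a pseudocount of 1. Intervals on ratios to 1 or 2 reads cover counting error only, and 3 reads amount to 0.0806 to 0.349 CPM. Named genes are the 9 members, listed genes that passed (at most 4 a list), the first 2 markers of a list, the 3 genes most similar in level, and the targeted genes. In culture, listed genes at least 2-fold apart were named as examples after their values were seen. Alternatives were another pseudocount, no filter, no trend, quantile and median-ratio scaling, a replicate block, each Cre line alone and leaving out each library. Summing Ftl1 with its copy was added after seeing the data.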

Additional observations from a re-analysis of the deposited data

Results flagged for a closer look

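The log2 ratios of Spic changed sign with the background in culture. CXCL12 gave a ratio of -0.61 without the inhibitor (-0.608) and of 1.02 with it. The inhibitor gave -1.28 without CXCL12 and 0.35 (0.349) with it. These rest on 4 single libraries, the same ones for both contrasts, and the difference was not tested. The CXCL12 ratio of Slc11a1 also crossed 0, at 0.05 without and -0.0046 with the inhibitor, both close to no difference.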

How the results depend on the processing

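In the CXCR4 sort, the 5 members passed with a pseudocount of 0.1 (1031 genes passing in all), quantile scaling (1293), median-ratio scaling (1211) and the Ftl1 sum (1218), against 1219 as reported, and 0 members and 0 genes passed with no trend or no filter on low values. Genes passing went from 1 to 8 (Cxcr4 knockout) and from 1 to 2 (difference between knockouts) with no filter, to 0 in both with no trend, and to 2 (Cxcr4) and from 0 to 1 (Cxcl12) with each Cre line alone. Leaving out 1 library gave 1 to 150 genes for Cxcr4, 0 to 151 for Cxcl12 and 1 to 30 for the difference, with 0 to 1 members passing for Cxcr4 and for the difference. The replicate block gave 1 gene for the Cxcl12 knockout and changed no other count or call. Repeat deviations correlated at 0.0573 to 0.139 between groups, and the labels do not pair libraries, so the main fit had no block. Such low correlations do not show that repeats were unrelated. In all 4 groups, 5.8% of genes were higher in repeat 1 and 11.9% in repeat 2. Lowering the 10 CPM or FPKM limit to 1 raised genes at least 2-fold apart from 2399 to 7172 (CXCL12), 4989 to 8418 (CXCL12 with inhibitor), 3552 to 7918 (inhibitor), 4683 to 9230 (inhibitor with CXCL12) and 879 to 3042 (P4).

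Signs turned only for members that did not pass. Under scaling, the Cxcr4 change of Slc11a1 was -0.0012 (quantile) and -0.055 (median-ratio); the Cxcl12 change was 0.018 for Fth1 (quantile), -0.039 for Hmox1 and -0.15 for Slc40a1 (median-ratio); the difference between knockouts was 0.44 for Spic (quantile) and 0.10 for Fth1 (median-ratio). In the CXCR4 sort, median-ratio scaling gave 0.10 for Fth1 and 0.091 for Ftl1, and the sum with the copy 0.67. Leaving out 1 library, with the remaining one of its group assumed to vary like the other groups, gave these ranges (log2). For Cxcr4: Blvrb -0.80 to 0.76, Fth1 -1.28 to 1.13, Ftl1 -1.45 to 2.32, Hmox1 -0.11 to 1.90, Slc11a1 -0.74 to 0.85, Spic -0.47 to 2.83, Trf -0.27 to 0.89. For Cxcl12: Fth1 -0.61 to 0.47, Ftl1 -1.46 to 0.0041, Hmox1 -0.54 to 0.89, Slc11a1 -0.97 to 0.011, Spic -0.15 to 4.21, Tfrc -1.03 to 0.24. For the difference: Fth1 -1.21 to 1.20, Ftl1 -0.72 to 3.05, Hmox1 -0.29 to 1.72, Slc11a1 -0.26 to 1.33, Spic -3.03 to 1.34, Trf -0.14 to 1.02. Quantile scaling shifted the median of all genes from 0.14 to 0.01 (Cxcr4), 0.36 to 0.02 (Cxcl12) and -0.20 to -0.09 (sort). With 2 libraries a group and 1 negative library, small changes were beyond these data.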
